A study of Mus musculus with 22 samples.

Results

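The presynaptic active zone is the patch of membrane at which a nerve terminal releases its vesicles, and a small set of large scaffold proteins holds it together. The genes described here are the 9 scaffold genes Pclo, Bsn, Rims1, Rims2, Erc1, Erc2, Unc13a, Unc13b and Ppfia3, which were looked up by symbol and were found in both count tables, among 24421 genes each. They were picked with an earlier result in view, the difference between dominant and submissive females, so their values in that comparison are given as a description without a test. The samples were right brain hemispheres of 22 C57B6/J OlaHsd mice without any transgene or treatment, housed 4 to a cage of one sex and ranked by tube tests at 10 to 12 weeks of age. Of these, 7 were dominant and 7 submissive males, and 4 were dominant and 4 submissive females, and mice of the same replicate number came from the same cage. Some intermediate females had been put into new groups and retested, and the cage names of female replicates 3 and 4 are of another kind than the rest, but no label says that these are the regrouped mice. The library names of males and females carry different prefixes and their counts were deposited as separate tables, so that sex and library set cannot be told apart.

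In the terminal, Piccolo (Pclo) and Bassoon (Bsn) are very large related proteins that span the active zone. RIM1 and RIM2 (Rims1, Rims2) bind the vesicle protein Rab3 and bring calcium channels to the release site, and ELKS (Erc1) and CAST (Erc2) bind RIM, Piccolo and Bassoon. Munc13-1 and Munc13-2 (Unc13a, Unc13b) make docked vesicles ready for fusion, and liprin-alpha-3 (Ppfia3) is an adaptor that binds RIM and ELKS proteins. All of these are expressed widely over the neurons of the brain, and a hemisphere holds neurons of every region together with glia and vessels.

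In mm10 the genes lie on 9 different chromosomes, and none shares exon bases with another annotated gene. Pclo (chr5:14514918-14863459, plus strand) has 22100 exon bases in the deposited table and ranks at place 12 from the longest of 24421 genes. Bsn (chr9:108096022-108190383, minus strand) has 15937 exon bases and ranks at place 46. The others hold between 4067 bases for Rims1 (chr1:22288422-22805724, minus strand) and 9854 for Erc1 (chr6:119570796-119848150, minus strand), against a median of 2194 over all genes. Rims2 lies at chr15:39198286-39684372 on the plus strand with 7940 bases, and Erc2 at chr14:27622442-28478537 on the plus strand with 6083. Unc13a lies at chr8:71626712-71671757 on the minus strand with 7960 bases, Unc13b at chr4:43058984-43264887 on the plus strand with 6391, and Ppfia3 at chr7:45339126-45367019 on the minus strand with 4866. The scaffold genes are thus long transcripts.

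Promoter windows from RefSeq (GRCm38.p6, 250 bases before to 50 after the start) matched 8 of the 9 genes, with none for Rims2. Those of Bsn and Unc13a are shown because both genes rose and fell together across the males, as described further down, and that of Pclo because it is the large relative of Bsn. Capitals mark the motif GGGCGG on either strand (CCGCCC when read on the other) and the palindrome CGCATGCG.
Pclo (chr5:14514668-14514967, plus strand): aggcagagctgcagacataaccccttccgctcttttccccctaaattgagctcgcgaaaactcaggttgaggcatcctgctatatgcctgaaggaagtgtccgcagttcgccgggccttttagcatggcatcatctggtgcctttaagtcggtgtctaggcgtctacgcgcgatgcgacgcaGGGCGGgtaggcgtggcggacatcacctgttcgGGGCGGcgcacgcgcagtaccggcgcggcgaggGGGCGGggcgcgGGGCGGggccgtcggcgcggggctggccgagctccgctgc
Bsn (chr9:108190334-108190633, minus strand): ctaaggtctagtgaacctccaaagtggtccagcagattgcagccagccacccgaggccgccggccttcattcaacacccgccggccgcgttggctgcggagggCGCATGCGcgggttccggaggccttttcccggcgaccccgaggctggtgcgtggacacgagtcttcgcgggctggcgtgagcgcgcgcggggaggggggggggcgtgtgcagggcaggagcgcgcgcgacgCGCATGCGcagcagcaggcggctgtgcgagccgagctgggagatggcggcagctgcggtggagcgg
Unc13a (chr8:71671708-71672007, minus strand): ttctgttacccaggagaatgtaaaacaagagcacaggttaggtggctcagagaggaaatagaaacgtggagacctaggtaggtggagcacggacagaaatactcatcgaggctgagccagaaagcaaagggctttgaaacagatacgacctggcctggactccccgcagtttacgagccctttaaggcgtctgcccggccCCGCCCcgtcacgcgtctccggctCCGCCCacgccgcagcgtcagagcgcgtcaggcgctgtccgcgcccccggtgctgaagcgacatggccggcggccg
The Pclo window held 4 copies of GGGCGG and the Unc13a window 2, all of the latter on the other strand, while the Bsn window held none. GGGCGG was found in 7 of the 8 windows and in 35.66% of 32851 mouse promoter windows of the same length. Bsn was the only one of the 8 with CGCATGCG, of which it held 2 copies, and 1.87% of all windows held that motif. The E-box CACGTG was found in 1 of the 8 windows, that of Unc13b (7.15% of all windows), and neither TGACGTCA (1.79%) nor TATAAA or its reverse TTTATA (13.62%) in any. The windows are rich in CpG, with 35 in Pclo, 38 in Bsn and 27 in Unc13a against a median of 7. The motifs were chosen with the expression data known, and a match describes letters, not binding.

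Per length, the RIM genes were the most abundant of the 9. The levels were computed as TPM, that is counts per exon base scaled to a common total, the scale on which genes can be compared with each other. Rims1 stood at 194.2 ± 11.95 TPM (SD, n = 22), Rims2 at 144.7 ± 11.3 and Erc2 at 126.8 ± 10.1. Unc13a followed at 79.3 ± 7.98 TPM, and the giant scaffolds Pclo and Bsn stood lower, at 54.0 ± 10.6 and 45.0 ± 8.38. Ppfia3 reached 57.7 ± 9.91 TPM, Erc1 36.6 ± 3.87 and Unc13b 26.1 ± 3.402. Going down this order, Rims1 lay above Rims2 in 22 of 22 libraries, Rims2 above Erc2 in 20, Erc2 above Unc13a in 22 and Unc13a above Ppfia3 in 22. Ppfia3 and Pclo changed places between the tables, Ppfia3 being higher in 8 of 8 females, without overlap, and in 4 of 14 males, so that their order over all libraries depended on the table. Pclo lay above Bsn in 20 libraries, Bsn above Erc1 in 19 and Erc1 above Unc13b in 21. Scaling by TMM library sizes (FPKM) gave the same order.

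**Figure D1:**
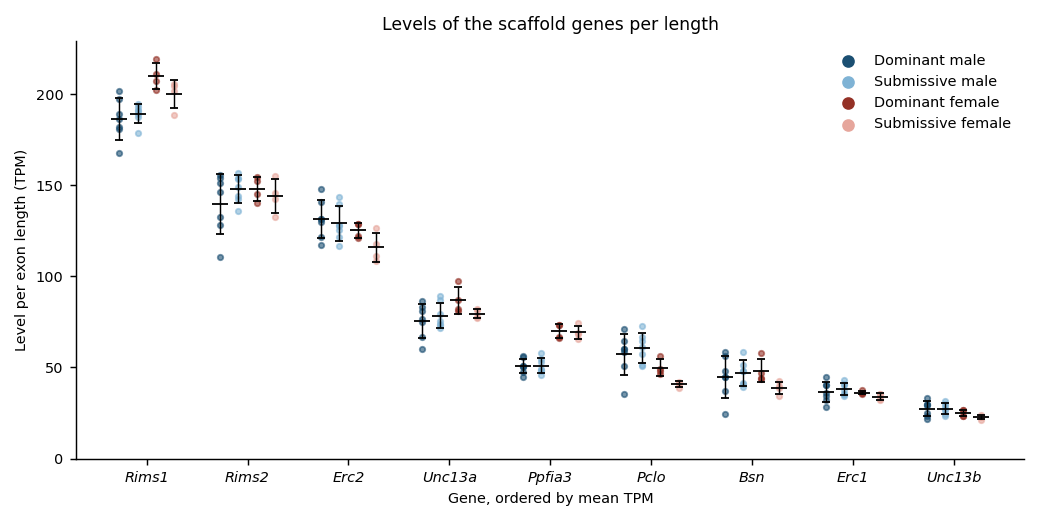
Level per exon length (TPM, linear axis) of each gene in each library, with genes ordered by their mean over 22 libraries. Points are libraries, bars are the group mean ± SD (7 dominant males, 7 submissive males, 4 dominant females, 4 submissive females), and Rims1 (194.2 TPM on average) stands above every other gene in each library.

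Depth ran from 12403943 to 16488762 counted reads per library, and neuronal, glial and vascular markers were present in all of them. The library labelled dominant male 1 stood apart in its cerebellar markers. Pcp2, a Purkinje cell gene, had 0 counts there and between 254 and 911 in the other libraries, and 5 markers of cerebellar granule cells summed to 81.4 CPM, against 296.3 to 694.4 CPM in the other males. Submissive female 3 stood apart in pituitary markers, with Prl, Gh, Pomc, Cga and Tshb summing to 22.6 CPM against 1.26 to 3.41 CPM in the other libraries. CPM are counts scaled to a common library size, here adjusted by TMM. In bulk tissue, fewer cells of a type and less RNA per cell cannot be told apart.

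The comparison of dominant with submissive males asked whether these genes differ with rank where the rank contrast had no part in their choice. None of the 9 passed the test. Pclo stood at 286 CPM in the lowest, 468 in the median and 542 in the highest of 7 dominant males, and at 406, 475 and 563 CPM in the submissive males. Bsn stood at 141, 258 and 327 CPM in dominant and at 226, 273 and 328 CPM in submissive males. The groups overlapped for every one of the 9 genes (over all genes, 0.00% had every dominant above every submissive male and 0.00679% the reverse), and the lowest value of Pclo and of Bsn came from the same mouse, dominant male 6. The log2 difference of dominant minus submissive males was -0.09 (SE 0.11) for Pclo, -0.07 (SE 0.14) for Bsn, -0.08 (SE 0.06) for Rims2 and -0.07 (SE 0.08) for Erc1. Unc13a stood at -0.05 (SE 0.07) and Rims1 at -0.02 (SE 0.04), while Erc2 (0.03, SE 0.05), Unc13b (0.00, SE 0.08) and Ppfia3 (0.00, SE 0.06) lay close to 0. In edgeR's quasi-likelihood test, adjusted by Benjamini-Hochberg over 14737 genes, each of the 9 had an adjusted p of 0.9999, and 0.00% of all genes were called in either direction (194 at an unadjusted p under 0.05, and 0 and 119 with DESeq2). The difference was below 0 in 7 of the 9 genes, as in 51.4% of all genes, and their median was -0.05, against 0.00 over all genes.

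Within the 7 male cages, Pclo was higher in the dominant mouse in 2 cages, Bsn in 3 and Rims2 in 1. Unc13a, Unc13b and Erc2 were each higher in the dominant mouse of 4 cages. The widest gap was that of Bsn, whose log2 difference within a cage ran from -0.98 to 0.54. Leaving out dominant male 6 brought Bsn from -0.07 to 0.04 and Pclo to 0.00 on the log2 scale. Leaving out dominant male 1, which stood apart in its cerebellar markers, brought Rims2 from -0.08 to -0.03, Erc1 from -0.07 to -0.01, Unc13a from -0.05 to -0.09, Bsn to -0.14 and Pclo to -0.11, and 0 of the 9 were called.

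In females, where the genes had been chosen for their difference, the long scaffolds stood higher in the dominant mice. Pclo reached 385, 369, 390.2 and 447 CPM in dominant females 1 to 4 and 343, 329.7, 331 and 309 CPM in submissive females 1 to 4. Every dominant female lay above every submissive one for Pclo. Bsn reached 253, 256, 272 and 329 CPM in the dominant and 232, 200.3, 245 and 221 CPM in the submissive females, again without overlap. The log2 difference of dominant minus submissive females was 0.27 (SE 0.05) for Pclo and 0.30 (SE 0.07) for Bsn. Pclo and Bsn were the only 2 of the 9 genes without overlap, a pattern that 3.36% of 14865 genes showed in this direction and 2.10% in the other. Without submissive female 3, whose pituitary markers stood apart, the differences were 0.28 for Pclo and 0.34 for Bsn. Pclo was higher in the dominant mouse of 4 of 4 cages by 0.16 to 0.53 on the log2 scale, and Bsn in 4 of 4 by 0.12 to 0.58.

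The other scaffold genes lay nearer to 0 in females. Unc13b (0.12, SE 0.05), Unc13a (0.11, SE 0.04), Erc2 (0.10, SE 0.04) and Erc1 (0.08, SE 0.04) came next on the log2 scale, then Rims1 (0.05, SE 0.03), Rims2 (0.03, SE 0.04) and Ppfia3 (0.00, SE 0.04). In Unc13a, the dominant females stood at 238, 233.5, 249.6 and 277 CPM and the submissive females at 238, 238, 223 and 220.4 CPM, so that the groups overlapped and dominant females 3 and 4 stood above the rest. The 9 genes had a median of 0.10, against 0.00 over all genes. Across all genes, edgeR called 14 of 14865 by rank in females (0.0942%), 11 higher in dominant mice (0.0740%) and 3 lower (0.0202%). With the cage as a block the count was 36 (27 higher and 9 lower), and without submissive female 3 it was 0. Since these genes were picked on this contrast, nothing is read from their share of the calls. The values just inside and outside the non-overlap were 369 CPM in the lowest dominant against 343 CPM in the highest submissive female for Pclo, and 253 against 245 CPM for Bsn.

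**Figure D2:**
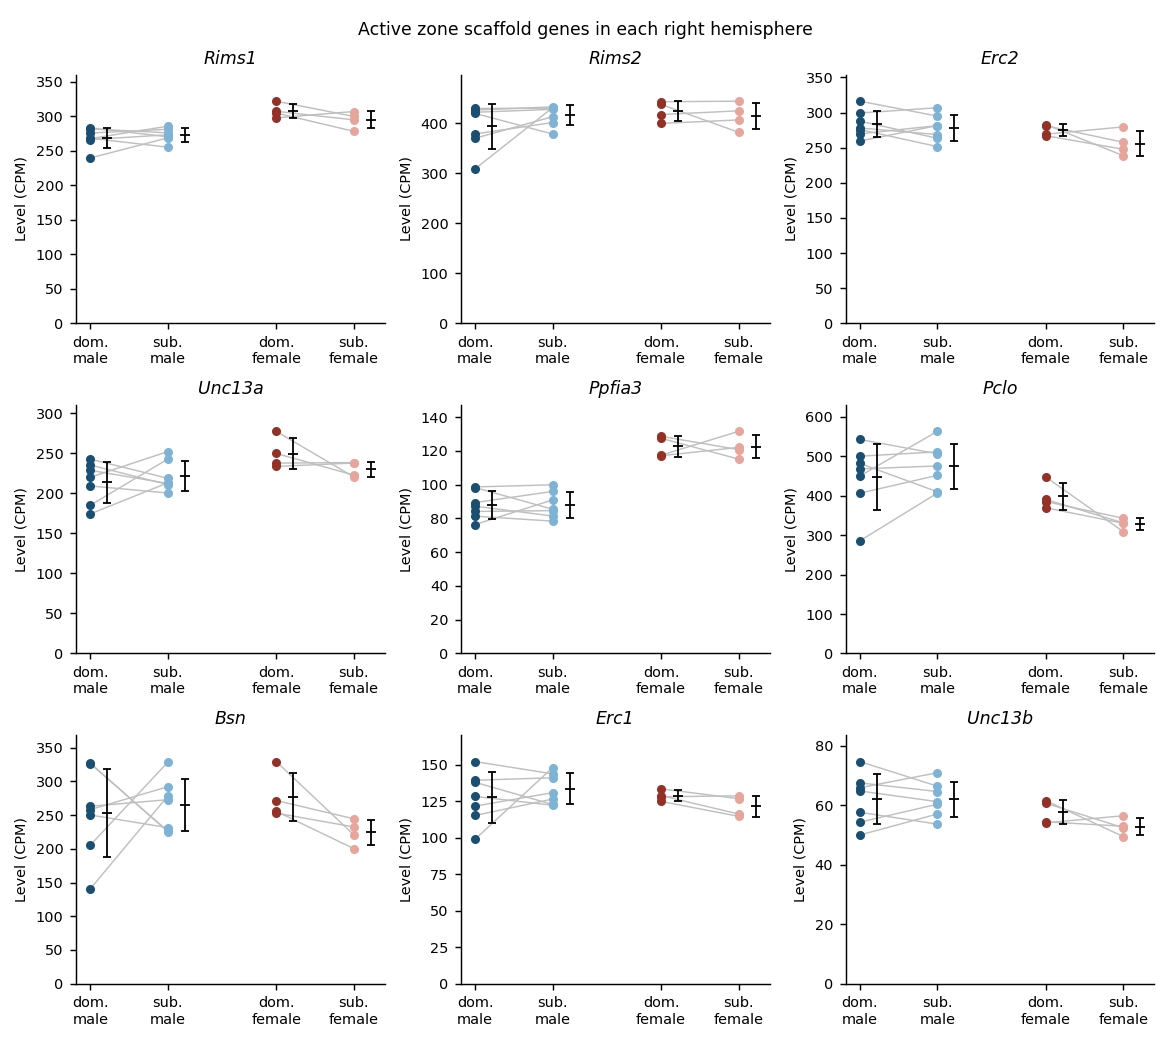
CPM (linear axis from 0) of the 9 genes in each mouse, with grey lines joining mice of a cage and black bars giving the group mean ± SD. The groups overlap in every panel for males. In females Pclo and Bsn do not overlap between ranks, and Ppfia3 lies above the male range in all 8 females.

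Pathway genes around the scaffold were looked at in the same fits. In males, 0 of 15 other active zone genes, 0 of 21 genes of the fusion machinery, 0 of 13 vesicle protein genes, 0 of 9 genes of presynaptic calcium channels and 0 of 15 postsynaptic scaffold genes were called by rank. The median log2 difference of each list in males lay between -0.01 and 0.00. The values farthest from 0 were those of Unc13d (-0.47, SE 0.17), a Munc13 relative known from secretion in blood cells, and of Doc2b (-0.12, SE 0.08), a calcium sensor of release. Cacna1a (-0.12, SE 0.07), which codes for the pore of the P/Q-type calcium channel, and Syn3 (-0.11, SE 0.08), a synapsin, came next, and Lin7b stood at 0.10 (SE 0.06).

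In females 0 genes of these lists were called, but most lay above 0. Postsynaptic scaffold genes were above 0 in 15 of 15 cases with a median of 0.11, and calcium channel genes in 9 of 9 with a median of 0.07, where 49.1% of all genes were above 0. Shank1 (0.28, SE 0.09), a scaffold of the postsynaptic density, led the former list. Cacna1b (0.16, SE 0.05), the pore of the N-type channel, and Cacna1a (0.12, SE 0.05) led the latter. Synapsin 1 (Syn1, 0.23, SE 0.06), Vamp2 (0.17, SE 0.05), the vesicle SNARE, and Rims4 (0.21, SE 0.07), a short RIM relative, were the highest of their lists, and Unc13d stood at -0.34 (SE 0.18). The fusion machinery (13 of 21 above 0), the vesicle proteins (8 of 13) and the other active zone genes (9 of 15) had medians of 0.01 to 0.02. With the length trend removed, the median was 0.06 for the postsynaptic genes, of which 13 of 15 stayed above 0 (Shank3 and Dlgap3 did not), and 0.04 for the calcium channel genes, with 9 of 9 above 0. These lists were compared on the contrast the scaffold genes were chosen on, and they were written with it known.

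Length went with the rank difference in females over all genes. The median log2 difference of dominant minus submissive females rose from -0.04 in 1021 genes under 1000 exon bases to 0.06 in 707 genes of 8000 to 16000 bases and 0.09 in 31 genes above 16000. In males it ran the other way and less far, from 0.01 in 1007 short genes to -0.02 in 708 genes of 8000 to 16000 bases and -0.04 in the 31 longest. A smooth trend through all genes placed a female gene of the length of Pclo at 0.09 and one of the length of Bsn at 0.08. Pclo (0.27) and Bsn (0.30) thus lay above the trend, as did Unc13a (0.11 against 0.05) and Unc13b (0.12 against 0.03), while Rims2 (0.03 against 0.05) and Ppfia3 (0.00 against 0.02) lay under it. With each library's length trend removed, the female differences were 0.18 (SE 0.04) for Pclo and 0.22 (SE 0.06) for Bsn, and the median of the 9 genes was 0.06. After that correction 0 of 14865 genes were called in females (1122 at an unadjusted p under 0.05), and 8 (3 higher and 5 lower) with the cage as a block as well.

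**Figure D3:**
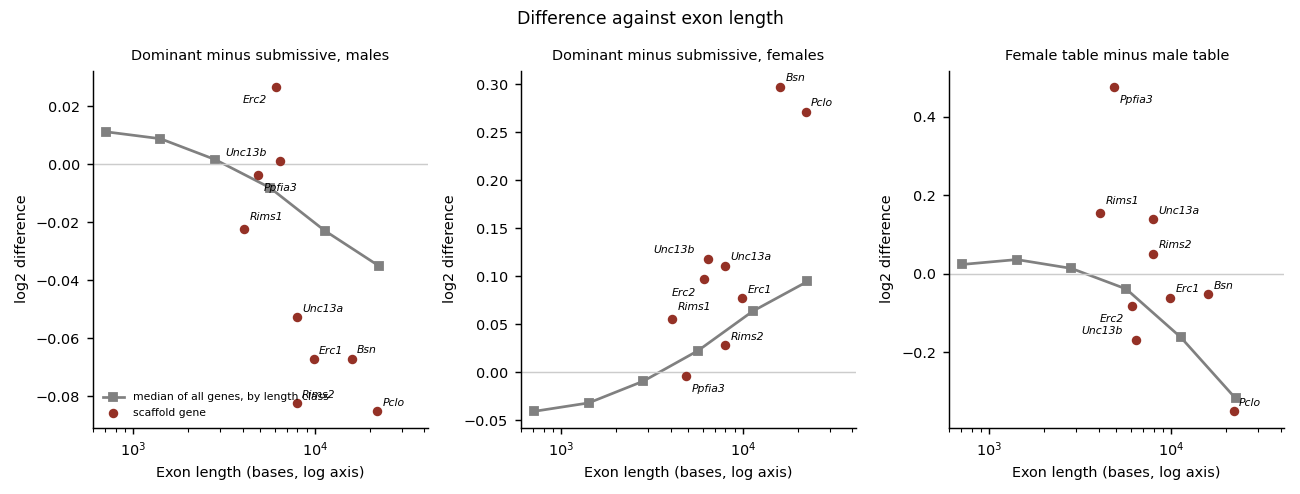
The log2 difference of each gene against its exon length (bases, log axis) for rank in males, rank in females and the female against the male table, with the median of all genes by length class in grey. The vertical axes differ. In females Bsn (0.30) and Pclo (0.27) lie above a rising grey line, and between the tables Pclo (-0.35) lies near the end of a falling one.

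The trend was also taken library by library, as the slope of log2 CPM, relative to the mean of the table, on log2 exon length over 15224 genes without the 9 scaffold genes. In females it was 0.0093, -0.0024, 0.0117 and 0.0187 log2 units per doubling of length in dominant mice 1 to 4 and -0.0068, -0.0076, -0.0053 and -0.0176 in submissive mice 1 to 4. The ranks did not overlap, and the difference of the means was 0.0187. This is given without a test, as it belongs to the contrast on which the genes were chosen. In males the slope averaged -0.0029 ± 0.0258 over the 7 dominant mice (SD) and 0.0029 ± 0.0202 over the 7 submissive mice, a difference of -0.0059 (two-sided exact permutation test, p = 0.643). The male libraries divided by cage instead. Slopes ran from 0.0053 to 0.0366 in the 8 males of replicates 1 to 4 and from -0.0441 to -0.0070 in the 6 males of replicates 5 to 7, without overlap, and no label names a batch that separates these cages.

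The difference between the sexes in the rank difference was 0.36 (SE 0.15) for Pclo and 0.37 (SE 0.21) for Bsn on the log2 scale, counted as the female minus the male difference. For the other 7 genes it lay between 0.01 (Ppfia3) and 0.17 (Unc13a, SE 0.11). It contains the female contrast, so it is likewise given without a test for these genes. Over all 15233 genes 0.00% were called by edgeR for this interaction (505 at an unadjusted p under 0.05, and 0 and 426 with DESeq2). With the length trend removed the values were 0.21 (SE 0.10) for Pclo and 0.24 (SE 0.20) for Bsn. Among the pathway genes it stood at 0.35 (SE 0.19) for Shank1 and at 0.28 (SE 0.18) for Syn1.

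Cage was compared within each table with rank as a term. In males Unc13b differed between cages (adjusted p = 0.0416 by edgeR's quasi-likelihood F test), 1 of the 9 genes, where 5.89% of all 14737 genes were called. Unc13b reached 61.2 to 74.6 CPM in the 8 males of replicates 1 to 4 and 49.95 to 60.3 CPM in the 6 males of replicates 5 to 7. These ranges did not overlap, as was so in this direction for 1 of the 9 genes and 5.14% of all genes (3.60% in the other direction, and 0 of the 9). Pclo followed the same division less strictly, with 449.7 to 563 CPM against 286 to 482 CPM, and missed the threshold (adjusted p = 0.0717), which it passed by edgeR's test when no filter on low counts was used (adjusted p = 0.0132, 5.90% of all genes called). Erc2 (adjusted p = 0.165) and Ppfia3 (adjusted p = 0.182) came next, and Bsn, the relative of Pclo, was last (adjusted p = 0.828). With the length trend removed Unc13b lost its call (adjusted p = 0.216), and Pclo had an adjusted p of 0.447. The call of Unc13b stood in only 1 of the 7 fits that left out a cage, with an adjusted p of 0.0223 without cage 1 and up to 0.0997 in the others. Without cage 1, Pclo (0.0247) and Erc1 (0.0380) were called as well (12.5% of all genes), without cage 5 Pclo alone was called (3.21% of all genes), and without any other cage 0 of the 9 were. In females 0 of the 9 genes differed between cages (0.0740% of all genes called). The lowest adjusted p there was that of Bsn, 0.884, whose unadjusted p was 0.0153 and which was called only when no filter on low counts was used, and 0 of the 9 were called with DESeq2.

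The female and the male table differed for 5 of the 9 genes, at a share of 36.2% among all 15233 genes. Ppfia3 was higher in the female table by 0.48 on the log2 scale (SE 0.05, adjusted p = 1.2e-08 by edgeR's quasi-likelihood test). Liprin-alpha-3 mRNA stood at 117, 117, 129 and 127 CPM in dominant and 122, 132, 121 and 115 CPM in submissive females, against 76.4, 86.3 and 99.9 CPM in the lowest, the median and the highest of the 14 males. Every female lay above every male for Ppfia3 alone of the 9, as was so for 4.03% of all genes, and for none of the 9 did every male lie above every female (2.07% of all genes). Rims1 was higher by 0.15 (SE 0.03, adjusted p = 0.000163) and Unc13a by 0.14 (SE 0.05, adjusted p = 0.0396). Pclo was lower in the female table by a log2 difference of -0.35 (SE 0.08, adjusted p = 0.000889), and Unc13b by -0.17 (SE 0.06, adjusted p = 0.0274). Of all genes 18.4% were called higher and 17.8% lower. Bsn (-0.05, SE 0.10), Rims2 (0.05, SE 0.05), Erc1 (-0.06, SE 0.05) and Erc2 (-0.08, SE 0.04) did not pass the test. Bsn stood at 251 ± 38.6 CPM in females (SD, n = 8) and 259 ± 52.3 CPM in males (SD, n = 14), and Pclo at 363 ± 44.4 and 461 ± 69.7 CPM, and the difference between these relatives was not tested.

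Which of these calls stood depended on transcript length and on the male cages. The trend over all genes placed a gene of the length of Pclo at -0.26 between the tables and one of the length of Bsn at -0.22. With the length trend removed Pclo stood at -0.09 (SE 0.05, adjusted p = 0.142) and Unc13b at -0.09 (SE 0.05, adjusted p = 0.138), and neither was called. Rims2 then passed (0.16, SE 0.05, adjusted p = 0.0152), and Rims1 (0.16), Unc13a (0.25) and Ppfia3 (0.51) stayed called, so that 4 of 9 genes were called at a share of 34.9% of all genes. Bsn (0.16) and Erc1 (0.09) turned to a positive sign without passing the test, and the median of the 9 genes went from -0.05 to 0.16. Against the males of replicates 5 to 7 alone, Rims1 and Ppfia3 were called (27.4% of all genes), and Pclo stood at -0.17 and Unc13b at -0.01. Against the males of replicates 1 to 4 alone 6 of the 9 were called (46.1% of all genes), with Pclo at -0.48 and Unc13b at -0.28. With dominant mice only Pclo stood at -0.17, and with submissive mice only at -0.54, values that contain the female rank difference and are given without a test. Unc13a was called in only 6 of the 22 fits that left out a library, where Pclo, Rims1, Unc13b and Ppfia3 were called in all 22. Neuronal markers moved with the tables, as 7 of them (Snap25 included) summed to 4529 to 4739 CPM in females and 3870 to 4473 CPM in males, and their part in these differences was not tested.

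**Figure D4:**
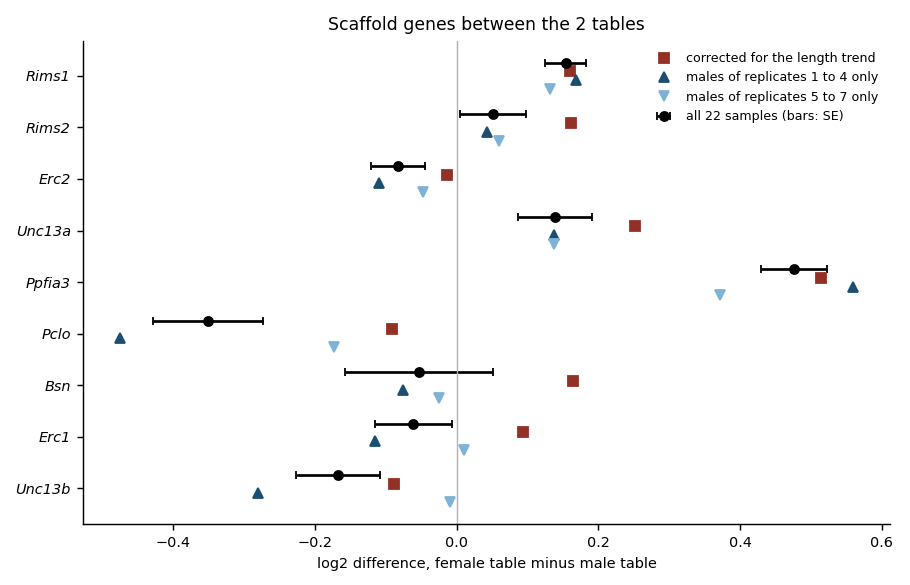
The log2 difference of the female minus the male table for each gene, from all 22 libraries (black, bars are ± SE), with each library's length trend removed (red), and against the males of replicates 1 to 4 or 5 to 7 alone (dark and light blue). Ppfia3 (0.48) and Rims1 (0.15) stay above 0 in all 4 settings, and Pclo runs from -0.48 to -0.09.

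The lists around the scaffold held genes called in both directions between the tables, where 18.4% of all genes were called higher and 17.8% lower. Of the other active zone genes 7 of 15 were higher and 0 lower in females, among them Rims4 (0.69, SE 0.06), Ppfia4 (0.59, SE 0.04), a further liprin, and the adaptors Apba1 (0.39, SE 0.04) and Git1 (0.38, SE 0.05). Of the fusion machinery 9 of 21 were higher and 0 lower, with Snap25 (0.45, SE 0.03), a membrane SNARE, Syt2 (0.33, SE 0.06) and Napb (0.31, SE 0.04) in front. The vesicle proteins divided, with 2 of 13 higher (Syngr3 0.45 and Syn2 0.15) and 5 lower, led by Sv2c (-0.45, SE 0.07) and Sv2a (-0.36, SE 0.03). Among the calcium channel genes, Cacnb3 was higher (0.18, SE 0.04) and Cacnb4 lower (-0.07, SE 0.03), 1 of 9 each. Postsynaptic scaffold genes held 4 higher and 2 lower of 15, with Shank3 (1.02, SE 0.04) and Dlgap3 (0.79, SE 0.06) the farthest from 0. The medians of the lists lay between 0.00 and 0.11, against -0.05 for the 9 scaffold genes and 0.00 over all genes. With the length trend removed, 10 of the other active zone genes were higher and 1 lower (Lin7b, -0.14), and 10 of the fusion machinery were higher and 0 lower, where 19.2% of all genes were called higher and 15.8% lower. Of the vesicle proteins 2 were then higher and 3 lower, as Syn3 and Synj1 lost their calls. The calcium channel genes held 2 higher and 0 lower, with Cacnb4 at 0.06 (adjusted p = 0.139) and no longer called, and the postsynaptic scaffold genes 6 higher and 0 lower, as Dlg2 and Dlg3 lost theirs. The medians were then 0.04 to 0.17, against 0.16 for the 9 scaffold genes.

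Across the 14 males, the levels of Pclo and Unc13b followed the length slope of their library, as did those of many genes. Pclo had Pearson's r = 0.882 (permutation p = 1e-05, the smallest that 100000 permutations can give, adjusted 0.000619 over all 15233 genes) and Spearman's rho = 0.903 (permutation p = 2e-05). Unc13b had r = 0.821 (permutation p = 0.00029, adjusted 0.00387) and rho = 0.758 (permutation p = 0.00235). These 2 of the 9 stood beside 25.5% of all genes called in the same way, a share that sets neither gene apart. Among the 746 genes of at least 8000 exon bases, to which Pclo belongs, 60.3% were called. Unc13b, with 6391 bases, is not among those long genes, and genes of its own length were not examined. Of those long genes, 19.3% had an r as high as that of Pclo or higher. Without the 2 libraries farthest from the median slope r was 0.837 for Pclo, still called, and 0.721 for Unc13b (permutation test, adjusted p = 0.0549). Within replicates 1 to 4 (n = 8) r was 0.695 for Pclo and -0.219 for Unc13b, and within replicates 5 to 7 (n = 6) it was 0.945 and 0.889, none called after adjustment, where 0 of all genes were called in either set. So few libraries could hardly give a call after adjustment over all genes, and nothing is read from this lack of calls. In replicates 5 to 7 Unc13a had r = 0.986 and Bsn 0.887, and neither was called. With the cage means removed from both measures Pclo had r = 0.728 and Unc13b r = 0.429. The 2 mice of a cage then mirror each other and are not separate values, so these are given without a test. Over all 14 males Bsn had r = 0.375 (permutation p = 0.189, adjusted 0.342), and without dominant male 6 it had r = -0.093, although it is the second longest of the 9. The others lay between r = -0.542 (Ppfia3) and 0.439 (Erc1). The value of Ppfia3 turned positive within replicates 1 to 4 (0.217), within replicates 5 to 7 (0.554) and with the cage means removed (0.278), and Rims1 went from -0.201 to 0.390 with the cage means removed. Erc1 was called without dominant male 1 (r = 0.714, permutation test, adjusted p = 0.0309, 26.8% of all genes called).

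A second measure of the library went with other genes of the set. Rims2 and Erc1 rose with the summed level of the granule cell markers Gabra6, Neurod1, Cbln3, Etv1 and Fat2 across the males, 2 of the 9 where 4.61% of 15228 genes (the markers left out) were called. This relation was looked for after the low values of dominant male 1 had been seen. Rims2 had r = 0.952 (permutation p = 4e-05, adjusted 0.0042 over all genes) and rho = 0.780 (permutation p = 0.00157). Erc1 had r = 0.886 (permutation p = 2e-05, adjusted 0.00305) and rho = 0.916 (permutation p = 3e-05). In dominant male 1, Rims2 stood at 309 CPM and Erc1 at 99.0 CPM, the lowest of all 22 libraries in both genes, against 369.9 to 432.7 and 115 to 152 CPM in the other males. Without that mouse r was 0.871 for Rims2 and 0.861 for Erc1, both still called (permutation test, adjusted p = 0.0201 and 0.00914, 2.63% of all genes called). Without the 2 libraries farthest from the median r was 0.813 and 0.852, and neither was called (permutation test, adjusted p = 0.117 and 0.0704), where 0.125% of all genes were. Within replicates 1 to 4, which hold dominant male 1, Rims2 had r = 0.982 and rho = 0.476 and Erc1 r = 0.960 and rho = 0.810. Within replicates 5 to 7 r was 0.777 and 0.840. Neither gene was called in either set, nor was any other gene (20.8% of all genes had an unadjusted p under 0.05 in the first set and 7.62% in the second). The sets hold too few libraries for a call over all genes to be likely, and nothing is read from this. Rims1 had r = 0.817 (permutation p = 0.00507, adjusted 0.0801) and rho = 0.631 (permutation p = 0.0187), which does not pass, and r = 0.464 without dominant male 1. With the cage means removed, the 2 mice of a cage mirror each other and are not separate values, so these are given without a test. There r was 0.880 for Rims1, 0.968 for Rims2, 0.981 for Erc1 and, in the negative direction, -0.641 for Unc13b. Ppfia3 went the other way, with r = -0.303 over all males and -0.764 (permutation p = 0.00113, adjusted 0.0479) without dominant male 1.

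In the 8 females Rims2 had r = 0.911 with the same markers (exact permutation test, p = 0.000223, adjusted 0.198 over all genes) and rho = 0.976 (exact p = 0.000397), which does not pass. No gene passed there, and 7.09% of all genes had an unadjusted p under 0.05. With 8 libraries a call after adjustment over all genes was hardly possible, so nothing is read from this. Without the 2 females farthest from the median r was 0.796, and with the rank means removed 0.953. Erc1 had r = 0.494 (exact permutation p = 0.168, adjusted 0.822) and rho = 0.595 (exact permutation p = 0.132). The range of the granule cell markers was narrower in females, from 395 to 615 CPM.

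**Figure D5:**
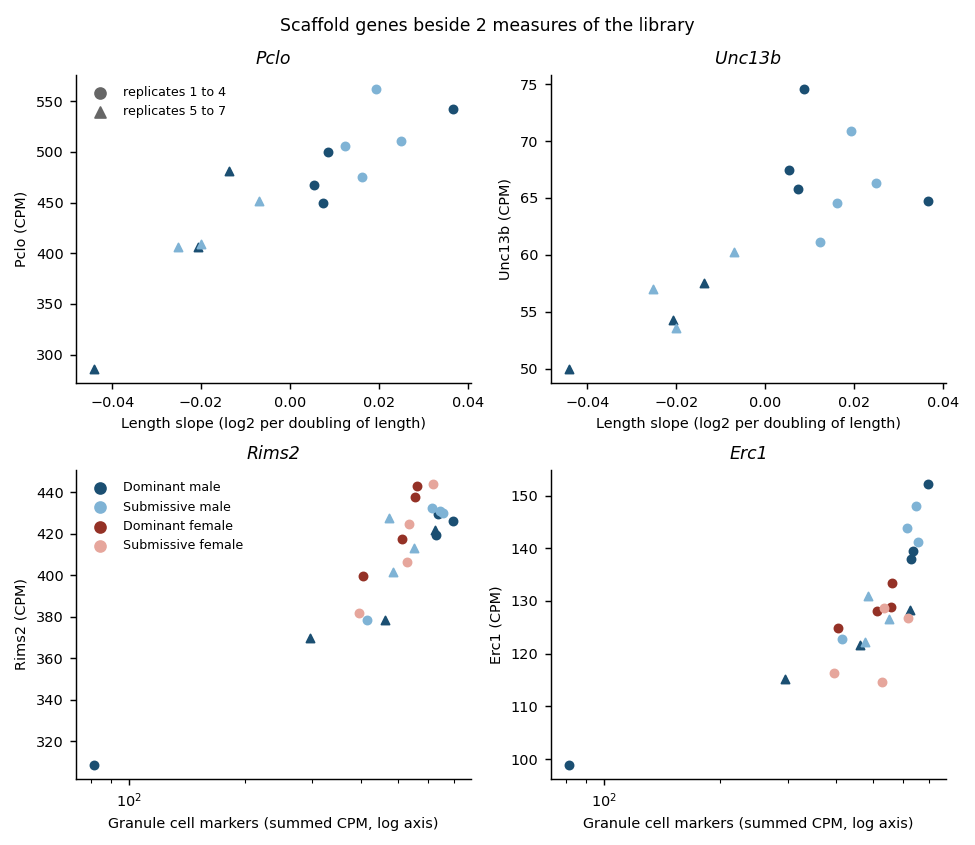
Upper panels, CPM of Pclo and Unc13b in 14 males against the length slope of the library (log2 units per doubling of exon length). Lower panels, CPM of Rims2 and Erc1 in all 22 mice against the summed CPM of 5 granule cell markers (log axis), with circles for replicates 1 to 4, triangles for replicates 5 to 7 and colours for the groups. Dominant male 1 lies alone at 81.4 CPM of granule cell markers with the lowest Rims2 and Erc1.

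Pairs of the 9 genes were compared over the 14 males, 36 pairs in all, of which 4 passed adjustment over these pairs, all positive. The permutations took mice of the same cage as independent. All 4 had r of 0.798 or more, as had 0.743% of the pairs of all 15233 genes. Bsn and Unc13a rose and fell together (r = 0.893, permutation p = 4e-05, adjusted 0.00072, rho = 0.842, permutation p = 0.00042, adjusted 0.0112), also within replicates 1 to 4 (0.889) and within replicates 5 to 7 (0.919). Rims2 went with Erc1 (r = 0.882, permutation p = 3e-05, adjusted 0.00072, rho = 0.811, permutation p = 0.00062, adjusted 0.0112) and with Rims1 (r = 0.852, permutation p = 0.0012, adjusted 0.0105, rho = 0.552, permutation p = 0.0429, adjusted 0.172), the latter falling to 0.616 without dominant male 1. Pclo went with Unc13b (r = 0.798, permutation p = 0.0003, adjusted 0.0036, rho = 0.732, permutation p = 0.004, adjusted 0.048), with 0.183 within replicates 1 to 4 and 0.867 within replicates 5 to 7. Without the 2 males farthest from the median of the gene named first in the annotation order above, r was 0.776 for Bsn with Unc13a, 0.675 for Rims2 with Erc1, 0.476 for Rims1 with Rims2 and 0.683 for Pclo with Unc13b. In females the highest values were those of Pclo with Bsn (r = 0.905, and 0.766 with the rank means removed) and Pclo with Unc13a (r = 0.897, and 0.928), given without a test. The pairs share their libraries, and the lowest of the 36 values was -0.624 in males and -0.41 in females.

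The genes most like the set were those with the highest Pearson's r to the mean log2 CPM of the 9 genes, among genes with a mean of at least 10 CPM. In males (n = 14, 10321 candidates) they included Hnrnpul2 (0.953), Vamp2 (0.952), R3hdm2 (0.944) and Kcnc1 (0.940), a fast potassium channel. In females (n = 8, 10312 candidates) they included Hivep1 (0.986), Pitpnm2 (0.983), Whsc1l1 (0.975) and Fam208b (0.974). Of the genes named, the male ones had r of 0.715 to 0.949 in females and the female ones 0.450 to 0.773 in males. The points share their libraries, and these correlations are a description without a test.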

How the data were processed

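Total RNA of 22 right hemispheres was sequenced (TruSeq stranded total RNA with RiboZero, 85-nt single-end reads). The authors trimmed reads with cutadapt 1.15 and bbduk 38.06 (quality 10), mapped them with STAR 2.6.0a to mm10 and deposited raw counts per gene from featureCounts 1.6.2, one table per sex. The strand setting and the treatment of multiply mapped reads are not given in the sources used here. Depth was 12403943 to 16488762 counts per library, and precision beyond counting error comes from the mice. No unused column of per-sample values was present.

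From these counts, edgeR 4.0.16 (R 4.3.3) gave TMM factors, an expression filter (minimum count 10, total 15) and quasi-likelihood tests per table, with Benjamini-Hochberg adjustment over all genes and a threshold of 0.05. An SE is the log2 difference divided by the root of F. Log2 CPM used a prior count of 2. TPM and the length trend (loess, span 0.3, or a slope per library) used the deposited exon lengths. The coordinates are those deposited with the counts, and the promoters come from RefSeq GRCm38.p6. Slopes were compared by exact permutation tests, and correlations by 100000 permutations, or all 40320 orders with 8 libraries, adjusted over all genes (chosen after seeing the data) in place of the 9. These permutations took mice of the same cage as independent, which they need not be. Every test by rank was also run for the females; those for the 9 genes and for the slopes are not printed, because the genes and lists were chosen with earlier results of these data known, the female rank contrast among them. Alternatives were DESeq2 1.42.0, its size factors, other filters, a robust prior, length correction, a cage block, one fit of all libraries and leaving out each library; the divisions by replicate set, the granule cell marker relation and the gene pairs were chosen after seeing the data.

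Same-numbered mice shared a cage by the library names, and dominant and submissive mice of a cage were sacrificed together. The correlation of their deviations from the group means was 0.177 on average in males (-0.0293 for other pairs) and 0.0239 (-0.0080) in females. No 2 libraries of a group agreed within sampling noise (chi-square per gene of 1.77 or more over 54 pairs). Named genes were the 9, the genes of 5 pathway lists that passed a test or lay farthest from 0, and the 5 genes most like the set in each table; of the called list genes, the ones farthest from 0 are printed. Some genes that this rule names are not reported here. On simulated data with 200 genes changed by 0.4 on the log2 scale, the tests found 71.5% of them for rank in males, 74.0% for rank in females and 79.5% for the table comparison, each over 14671, 14770 and 15139 genes, and 63.0% for cage in males, where 16.6% of the calls were false. The simulated counts carried no length trend, and 0.4 was larger than any rank difference of the 9 genes over all males or all females.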

Additional observations from a re-analysis of the deposited data

Results flagged for a closer look

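Rims1 in dominant male 1, at 239.7 CPM, was the lowest of 7 dominant males, and the other 6 lay between 266 and 283 CPM; its gap to the nearest of them was 0.61 of the group's range. It was the only value found to stand apart from its group among 44 groups of values examined, where chance gives about 1 in 20. The same mouse had the lowest granule cell markers (81.4 CPM) and 0 counts of Pcp2, and their part in its Rims1 level was not tested.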

How the results depend on the processing

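No gene of the whole table was called by rank in males or for the interaction under any alternative run. The call count for rank in females moved from 14 to 77 with DESeq2, 84 without a filter, 0 with a mean count of at least 500 (956 at an unadjusted p under 0.05), 36 with the replicate block, 0 with length correction, 8 with both, 0 in one fit of all 22 libraries (579), 5 in replicates 1 to 2 and 120 in replicates 3 to 4, and from 0 to 77 when a library was left out (0 without submissive female 1 or 3, 77 without dominant female 2). For cage in males it moved from 868 to 547 with length correction and to between 375 (without cage 6) and 1841 (without cage 1) with a cage left out. For cage in females it moved from 11 to 5 with DESeq2, 99 without a filter, 4 without a rank term, and 2 to 31 with a cage left out. Between the tables it fell from 5512 to 2171 with dominant mice only. The causes were not tested, beyond the fewer libraries or genes in some fits.

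The rank differences in males near 0 changed sign in some settings: Unc13b (0.00) gave -0.004 with the replicate block, 0.000 at a mean count of at least 500, -0.078 in replicates 5 to 7 and -0.048 to 0.048 with a library left out; Ppfia3 gave 0.012 with length correction, 0.011 with the block as well, 0.026 in replicates 5 to 7 and -0.033 to 0.029; Rims1 gave 0.002 in replicates 1 to 4 and -0.038 to 0.004; Erc2 gave -0.015 in replicates 5 to 7 and -0.001 to 0.052; and Bsn gave -0.141 to 0.036. Between the tables Bsn gave 0.129 and Erc1 0.011 with dominant mice only, Rims2 -0.010 with submissive mice only, Bsn 0.164 and Erc1 0.093 with length correction, and Erc1 0.011 against replicates 5 to 7. With a library left out, Rims2 gave -0.011 to 0.064 and Ppfia3 -0.030 to 0.031 for rank in females, Ppfia3 -0.027 to 0.044 for the interaction, and in males Rims2 gave -0.105 to -0.031 and Erc1 -0.114 to -0.014. The female rank difference also turned sign with length correction (Rims2, -0.019), in replicates 1 to 2 (Unc13a, -0.015, and Unc13b, -0.012), in replicates 3 to 4 (Rims2, -0.028, and Ppfia3, 0.105) and in one fit of all libraries (Ppfia3, 0.004), and the interaction of Ppfia3 with length correction (-0.031).

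The slope difference by rank in males was -0.0124 to 0.0010 with a library left out, positive only without dominant male 6 (0.0010), and in females 0.0156 to 0.0226, with 0.0187 under the replicate block. Adjusted over the 9 relations, 2 to the length slope were called (2 over all genes), against 0 within replicates 1 to 4 and 0 within replicates 5 to 7. Unc13b gave r = -0.219 in replicates 1 to 4. In these 2 sets and with the cage means removed, Ppfia3 (-0.542) gave 0.217, 0.554 and 0.278. Rims1 (-0.201) gave 0.306, -0.247 and 0.390 in the same order. Bsn gave -0.057 without the 2 farthest libraries and -0.093 without dominant male 6. Of the 9 relations to granule cell markers 3 were called (2 over all genes), against 5 within replicates 1 to 4 and 0 within replicates 5 to 7. No count is given with the cage means removed, since the 2 mice of a cage then mirror each other. Over all genes 0.00% were called within each replicate set, where so few libraries could hardly give a call after adjustment over all genes. The replicate block changed no call of the 9 genes for rank in males, and their calls for rank in females are not given, since they were chosen on that contrast. With 4 females a rank, the SE of a rank difference in the 9 genes was 0.03 to 0.07 on the log2 scale.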
